A study of Eriocheir sinensis with 2 samples.

Results

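The antimicrobial peptides, lysozymes, lectins and immune recognition proteins of the Y-organ of the Chinese mitten crab *Eriocheir sinensis* were represented by 71 of the 47966 unigenes with reads. A unigene is an assembled transcript sequence without genome coordinates. The members were chosen by words in the name of the best protein hit (carcinin, crustin, antimicrobial, antibacterial, anti-lipopolysaccharide, lysozyme, lectin, galectin, ficolin, Toll, peptidoglycan, glucan-binding, Dscam, interferon, relish and dorsal), and 13314 of all unigenes had such a hit. C0 denotes the untreated crabs and C1 the crabs whose eyestalk had been removed 48 h before, with 30 crabs of 5 to 6 g in each group, kept in fresh water at 18 to 20 °C for 3 to 5 days. The Y-organ is the gland that secretes the moulting hormone, and the eyestalk holds the neuroendocrine tissue that restrains it. The sources used here name no sham operation, so the C1 treatment includes a wound. Each group gave 1 RNA sequencing library, so that the spread between crabs of a group is unknown.

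Crabs have no antibodies and rely on innate immunity. Recognition proteins such as lectins and glucan-binding proteins bind sugars and cell wall parts of microbes. Toll receptors pass the signal of infection on to transcription factors of the Rel family. In *Drosophila* dorsal is the Rel factor of the Toll pathway and relish that of the IMD pathway. These factors drive the genes of antimicrobial peptides, which in crustaceans are made largely by hemocytes, the circulating blood cells that also lie in and around other tissues.

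The unigene reads summed to 4.2e+06 in C0 and 3.8e+06 in C1, and 44833 and 44503 unigenes had at least 1 read. Each unigene was compared between the libraries by the exact binomial test (two-sided) of its C1 reads against the C1 share of all reads, 47.5%, with Benjamini-Hochberg adjustment over all 47966 unigenes. To be called differentially expressed (a DEU), a unigene needed an adjusted p no higher than 0.001 together with an absolute log2 ratio (C1/C0) above 1, with 0.5 read added to each library. This test compares the 2 libraries and not the 2 conditions, and the 95% Wilson intervals given in brackets cover counting error only. RPKM, the level of a unigene, is its reads per kilobase and per 1e+06 reads of the library. The 33 unigenes selected as Y-organ markers included any cytochrome P450 by name, a family not limited to hormone synthesis. Of the 33, 3 rose and 0 fell, beside 2.32% and 1.70% of all unigenes. The 3 were the ecdysone synthesis gene dib (Unigene1867) and the cytochrome P450 CYP379A1 unigenes Unigene54438 and Unigene6685. Of the 21 with at least 10 reads, 19 had a log2 ratio above 0, with a median of 0.76. The ecdysone biosynthesis protein Unigene19254 held most reads of the list, 277318 in C0 against 259118 in C1, with a log2 ratio of 0.05. In identifiers the ending _A0A, common to all unigenes, is left out.

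The strongest change among the members was the fall of 1 abundant antimicrobial peptide. Of the 71 members, 2 rose and 5 fell. The 2 that rose were a carcinin and a ficolin-2-like unigene. The 5 that fell were a carcinin-like unigene, 2 relish unigenes, a unigene of a lysM protein and plectin-1, which entered by its name and is not a lectin. The members that rose were 2.82% of the members, against 2.32% of all unigenes and 2.16% of the unigenes with a protein hit. Those that fell were 7.04%, against 1.70% of all unigenes and 2.98% of the unigenes with a hit. Among the 33 members with 50 or more reads over both libraries, 6.06% rose and 12.1% fell, beside 8.66% and 6.40% of all unigenes with as many reads. When a biological coefficient of variation of 0.2 between libraries of a group was assumed (edgeR exact test), the carcinin-like Unigene18824 kept its call with an adjusted p of 8.24e-07. The other 6 lost theirs. With 0.4 assumed, Unigene18824 lost its call as well (adjusted p = 0.741, edgeR exact test).

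The members went both ways. Of the 48 members with at least 10 reads, 25 had a log2 ratio above 0 and 23 below, with a median of 0.12. With as many reads, the median was 0.15 for all unigenes and -0.07 for those with a protein hit, as all members have. The counting interval lay above 0 in 16 of the 48 and below 0 in 11. With TMM factors as scaling every log2 ratio shifts by -0.17, and then 22 of these members were above 0 and 26 below. The other 23 members had 43 reads in C0 and 31 in C1 in all, and none of them was a DEU. Among them, 1 had 0 reads in C0 and 10 had 0 in C1, and none of these had more than 2 reads in the other library. A count of 0 was given a limit of 3 reads, which is a share of 7.22e-05% in C0 and 8.00e-05% in C1.

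**Figure D1:**
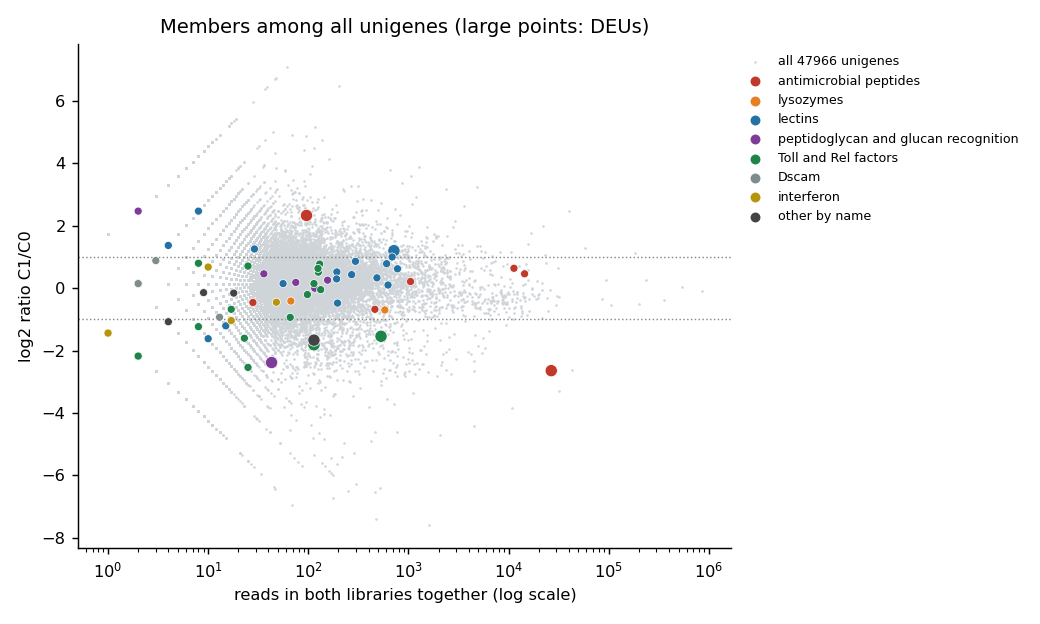
The plot shows the log2 ratio (C1/C0) against the reads in both libraries together on a log scale, for all 47966 unigenes in grey and the 71 members in colour by role, with 0.5 read added to each library and dotted lines at the log2 threshold of 1. The 7 DEUs are drawn large, and the carcinin-like unigene stands at the lower right with 26728 reads and a log2 ratio of -2.64.

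The members took 39310 reads in C0 and 22924 in C1, which was 0.947% and 0.611% of the libraries. The 7 antimicrobial peptide unigenes held most of them, 89.9% of the member reads in C0 and 82.1% in C1. In this bulk tissue, fewer cells of a type and less RNA per cell cannot be told apart.

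The carcinin-like unigene (Unigene18824, 637 bp) was the most abundant member in C0. Carcinin is a cysteine-rich antibacterial protein of the crustin family that was first described in the shore crab *Carcinus maenas*, the species of its best hit. It had 23351 reads in C0 and 3377 in C1. These are 0.562% (0.555 to 0.570) of the C0 reads and 0.0900% (0.0870 to 0.0931) of the C1 reads. Its RPKM was 8828 in C0, the level at rank 8 of all unigenes, and 1413 in C1, at rank 82. The reads per library total were thus 6.25-fold lower in C1, with a log2 ratio of -2.64 [-2.70, -2.59] and an adjusted p that the exact binomial test gave as 0, below the smallest number the software holds. Reads covered 98.6% of its length in C0 and 95.9% in C1. It alone took 59.4% of the member reads in C0 and 14.7% in C1.

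The second carcinin moved the other way from a low level. Unigene19128 (512 bp, best hit in the swimming crab *Portunus pelagicus*) had 17 reads in C0 and 79 in C1. The RPKM was 8.0 and 41.1, and the log2 ratio was 2.33 [1.62, 3.11] with an adjusted p of 9.42e-11 in the exact binomial test. The gain of this unigene was small beside the loss of the first, and the summed reads of both carcinins were 23368 in C0 and 3456 in C1.

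The anti-lipopolysaccharide factors, which bind the lipopolysaccharide of Gram-negative bacteria, had the most reads of all members in C1. Unigene20839 (851 bp) had 6454 reads in C0 and 8025 in C1, an RPKM of 1826 and 2514. Unigene19721 (1437 bp) had 4711 and 6622 reads, an RPKM of 789 and 1229. Their log2 ratios of 0.46 [0.41, 0.51] and 0.64 [0.58, 0.69] had intervals above 0 and were below the threshold of 1, so neither was a DEU. The adjusted p of the exact binomial test was 1.61e-79 for Unigene20839 and 2.21e-118 for Unigene19721. By RPKM the first stood at rank 73 of all unigenes in C0 and at rank 25 in C1, above the carcinin-like unigene.

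The 3 crustins, cationic antibacterial peptides with a whey acidic protein domain, summed to 826 reads in C0 against 715 in C1 and included no DEU. Crustin-1 (Unigene20157) had 513 reads in C0 and 537 in C1, with a log2 ratio of 0.21 [0.04, 0.39] and an adjusted p of 0.116 in the exact binomial test. Crustin-2 (Unigene45344) had 296 and 167 reads, with a log2 ratio of -0.68 [-0.95, -0.41]. The last crustin, Unigene44625, had 17 and 11 reads, too few to separate. The antimicrobial peptides together went from 35359 reads in C0 to 18818 in C1, and the log2 ratio of the sums was -0.76. Without the carcinin-like unigene the other 6 had 12008 and 15441 reads, and the log2 ratio was 0.51 [0.48, 0.54].

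**Figure D2:**
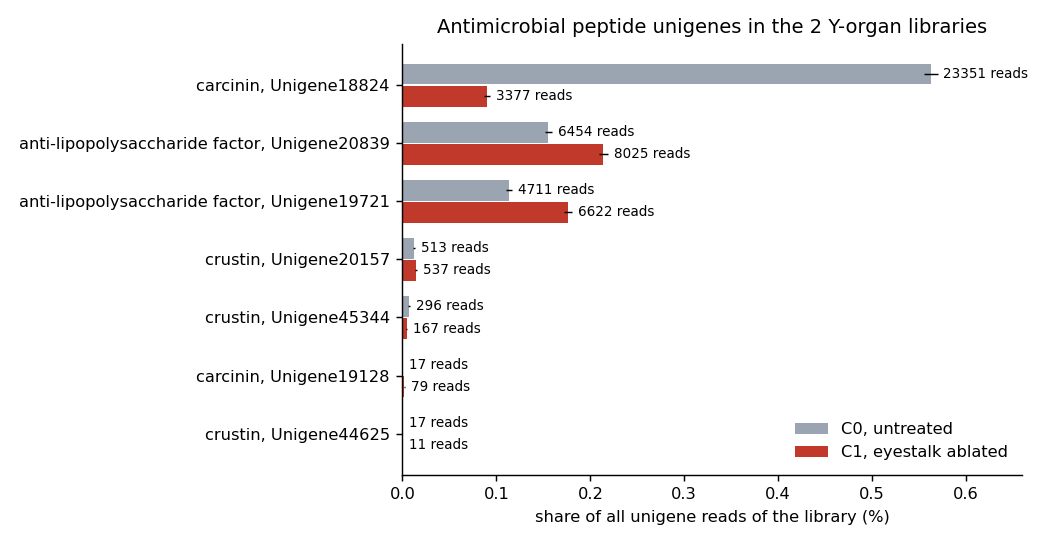
The bars show the share of all unigene reads of the library in percent for the 7 antimicrobial peptide unigenes, grey for C0 and red for C1, with 95% Wilson intervals as error bars and the reads beside them. The carcinin-like unigene is 0.562% in C0 and 0.0900% in C1, and both anti-lipopolysaccharide factors have the longer bar in C1.

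Values of unigenes with names linked to blood cells are set beside these, since hemocytes are a known source of antimicrobial peptides. The list was made by name words such as prophenoloxidase, clotting protein and integrin. Not all of these are limited to hemocytes, and it holds an integrin-linked protein kinase (Unigene9648). Of its 35 unigenes, 1 rose and 2 fell. Summed reads were 11267 in C0 and 36680 in C1, mostly from the clotting protein precursor Unigene20426 with 6745 and 33779 reads. Without it the other 34 had 4522 and 2901 reads, a log2 ratio of -0.49 [-0.56, -0.43], and 24 of the 32 with at least 10 reads were below 0. The 2 that fell were a prophenoloxidase-activating enzyme (Unigene40262, 179 reads in C0 and 62 in C1) and peroxinectin (Unigene26027, 120 and 38), a cell adhesion protein of hemocytes. Of the 35, 1 had 0 reads in C0. Other kinds of unigene moved as well. As background for all these lists, 2.32% of all unigenes rose and 1.70% fell, and 41.3% of those with at least 10 reads were below 0. For unigenes with a protein hit these shares were 2.16%, 2.98% and 53.7%. Of 30 muscle unigenes 1 rose and 5 fell, and 17 of the 26 with at least 10 reads were below 0. The median log2 ratio of these 26 was -0.58, beside -0.51 for the 32 of the blood cell list without Unigene20426. Summed muscle reads were 13520 and 12706, of which arginine kinase Unigene19602 had 6274 and 8157. The muscle list was also made by name words and holds a non-muscle myosin heavy chain (Unigene19676, 1207 and 1423 reads). Of 183 unigenes with a ciliate protein as best hit, a list chosen after its values were known, 0 rose and 99 fell, and their summed reads were 32495 and 10294, with a log2 ratio of -1.51 [-1.54, -1.48]. No member had a ciliate best hit. The part of these cells in the member values was not tested.

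Lysozymes cleave the peptidoglycan of bacterial walls, and 2 members carried this name. Neither was a DEU. The lysozyme Unigene24945 had 374 reads in C0 against 208 in C1, an RPKM of 116 and 71.3. Its log2 ratio of -0.70 [-0.94, -0.46] had an adjusted p of 4.36e-07 in the exact binomial test and stayed within the threshold of 1. The i-type (invertebrate-type) lysozyme-like Unigene4316 had 40 and 27 reads, with a log2 ratio of -0.41 [-1.12, 0.28]. Together the lysozymes had 414 and 235 reads, a log2 ratio of -0.67 [-0.90, -0.44].

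The lectins, proteins that bind sugars, were the largest role group, with 24 members and 2182 reads in C0 against 3000 in C1. The log2 ratio of the sums was 0.61 [0.53, 0.69]. Of the 15 lectins with at least 10 reads, 12 were above 0 (10 with TMM factors), and the interval lay above 0 in 9 and below 0 in 1. Of the 24, 1 rose, 0 fell and 23 were not DEUs, where 2.32% of all unigenes rose and 1.70% fell. Among these 23, Unigene46319, Unigene50283, Unigene25075 and Unigene7797 met the adjusted p limit and missed only the log2 threshold. Their adjusted p in the exact binomial test was 3.68e-17, 1.37e-09, 7.63e-08 and 1.18e-05.

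The lectin that rose was annotated as ficolin-2-like (CL561.Contig1, 506 bp), with a predicted protein of the sponge *Amphimedon queenslandica* as its best hit (E value 1.75e-13). Ficolins recognise sugars on microbes and start the complement cascade in mammals. It had 233 reads in C0 and 484 in C1, an RPKM of 111 and 255. The log2 ratio was 1.20 [0.98, 1.43] with an adjusted p of 3.24e-25 in the exact binomial test, so part of the interval lay below the threshold of 1.

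The C-type lectins, whose sugar binding depends on calcium, had 10 members, of which 5 had at least 10 reads. C-type lectin 4 (Unigene46319) had 245 reads in C0 and 443 in C1, an RPKM of 41.6 and 83.3. Its log2 ratio of 1.0 [0.78, 1.23] lay just under the threshold, with an adjusted p of 3.68e-17 in the exact binomial test, and it became a DEU when the ratio was taken from the deposited RPKM with 0.01 added in place of 0.5 read. Unigene7797 had 112 and 184 reads, with a log2 ratio of 0.86 [0.52, 1.20]. The C-type lectins were thus not called, although the summed reads of all 10 were 410 and 671. Those with a best hit in *E. sinensis* itself were rare, with 11 and 4 reads for Unigene20510, 8 and 2 for Unigene20964 and 1 and 7 for Unigene19529. The first 2 were lower and the last was higher in C1, and none passed the exact binomial test (adjusted p of 0.436, 0.410 and 0.177).

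The 3 hemolectin unigenes, named after a clotting protein of *Drosophila* hemocytes, shared 1 best hit in the blue crab, so they are not independent of each other. Unigene50283 had 237 reads in C0 and 369 in C1, with a log2 ratio of 0.78 [0.55, 1.02]. Unigene11555 had 84 and 109 reads, and Unigene17597 had 91 and 101. All 3 ratios were above 0, the summed reads were 412 and 579, and none was a DEU.

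The lectin with the most reads over both libraries was Unigene25075, named mannose-binding lectin 1, which in mammals is a cargo receptor of the secretory pathway and not an immune protein. It had 326 reads in C0 and 453 in C1, with a log2 ratio of 0.62 [0.42, 0.83] and an adjusted p of 7.63e-08 in the exact binomial test. A pair of lectins of 972 bp with the same best hit in *E. sinensis*, Unigene20473 (318 and 308 reads) and Unigene20474 (227 and 258), were counted together as 545 and 566 reads. Their joint log2 ratio was 0.20 [0.03, 0.37]. The median of unigenes with at least 50 reads was 0.20, and 0.004 for those of them with a protein hit. A lectin with a crayfish hit, Unigene24616, had 119 and 77 reads and was the 1 lectin whose interval, -0.89 to -0.07, lay below 0.

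**Figure D3:**
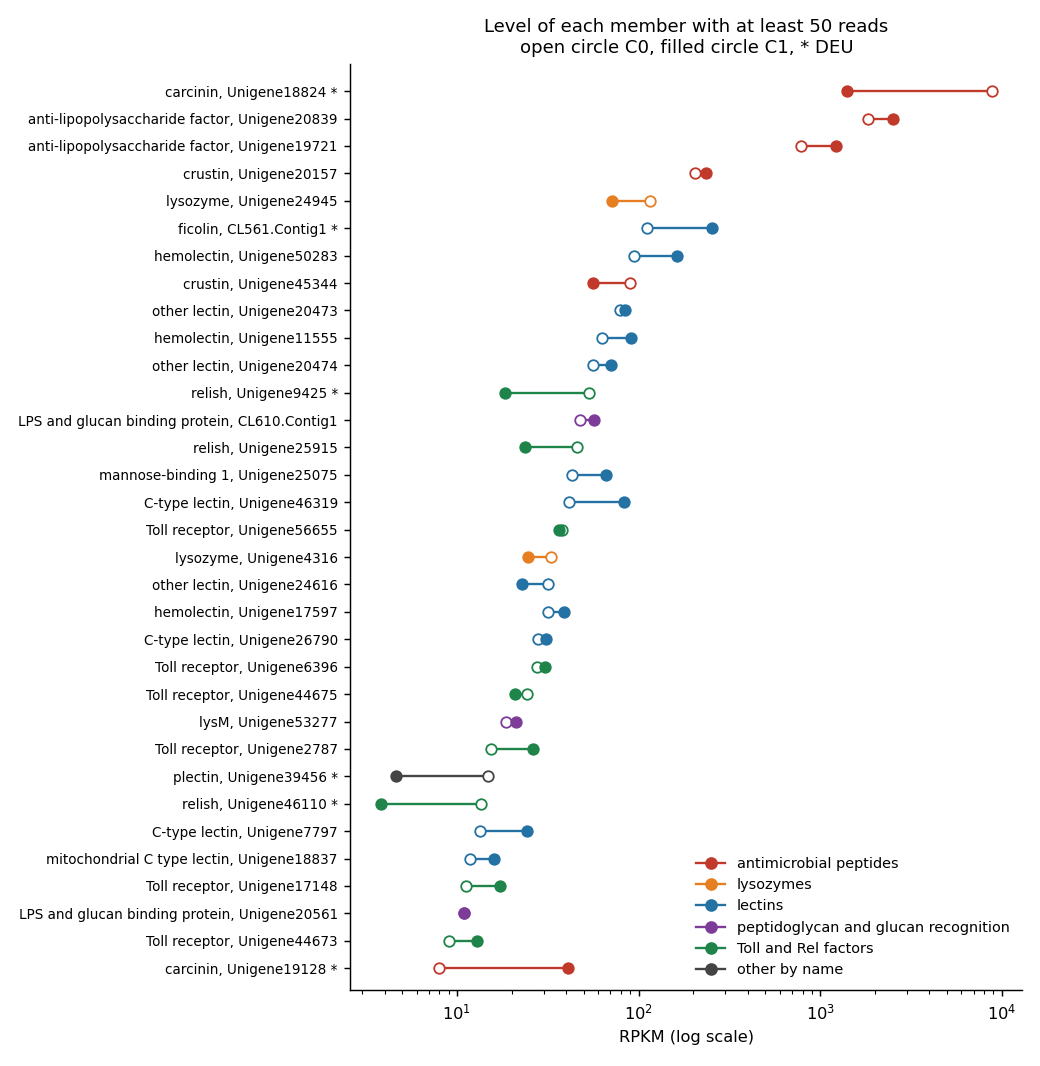
The plot shows the RPKM on a log scale of the 33 members with 50 or more reads over both libraries, open circles for C0 and filled circles for C1, coloured by role, with an asterisk at the 6 of them that are DEUs. The carcinin-like unigene is first by its C0 level of 8828, and the longest shifts to the left are those of carcinin-like, relish and plectin.

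Proteins that bind peptidoglycan or glucan had 7 members, which summed to 227 and 202 reads, a log2 ratio of -0.02 [-0.29, 0.25]. The lipopolysaccharide and beta-glucan binding protein, a recognition protein that starts the prophenoloxidase cascade in crustaceans, had 5 members and no DEU. CL610.Contig1 had 75 reads in C0 against 81 in C1, and Unigene20561 had 61 and 55. Their log2 ratios were 0.26 [-0.19, 0.71] and 0.00 [-0.53, 0.52], so no difference was detectable at this depth and a change smaller than those bounds could be present.

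LysM proteins are named for a domain that binds peptidoglycan in bacteria, and their role in crab immunity is not established by the name. Unigene53778 (403 bp), best hit to the lysM protein 2-like of a wasp, had 37 reads in C0 and 6 in C1, an RPKM of 22.1 and 3.97. It was the DEU with the fewest reads among the members, 43, with a log2 ratio of -2.38 [-3.69, -1.27] and an adjusted p of 0.000102 in the exact binomial test. This call was lost when a biological coefficient of variation of 0.1 was assumed (adjusted p = 0.00242, edgeR exact test). Unigene53277, best hit to lysM protein 4 of the zebrafish, had 37 and 38 reads.

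The Toll receptors and Rel factors had 18 members, with 960 reads in C0 and 593 in C1. Of these 0 rose and 2 fell, both of them relish. Over all unigenes 2.32% rose and 1.70% fell, and over those with a protein hit 2.16% and 2.98%. Relish is the Rel factor of the IMD pathway in *Drosophila*, where it drives antimicrobial peptide genes. Unigene9425 (1825 bp) had 407 reads in C0 and 126 in C1, an RPKM of 53.7 and 18.4. Its log2 ratio was -1.54 [-1.83, -1.26] with an adjusted p of 1.05e-27 in the exact binomial test. Unigene46110 (1605 bp) had 91 and 23 reads, an RPKM of 13.7 and 3.82, and a log2 ratio of -1.81 [-2.49, -1.18] with an adjusted p of 7.79e-08 in the same exact test.

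The 4 relish unigenes had 1 and the same relish protein of *E. sinensis* as best hit, so they are not independent of each other. Unigene25915 (236 bp) had 45 reads in C0 and 21 in C1, with a log2 ratio of -0.93 [-1.69, -0.21]. Unigene46111 (1311 bp) had 10 and 15 reads, with an interval of -0.39 to 1.86. Summed, relish had 553 and 185 reads, a log2 ratio of -1.43 [-1.67, -1.19]. Without Unigene9425 the log2 ratio of the 17 other Toll and Rel members was -0.10 [-0.27, 0.08], so that unigene carried most of the difference of the group.

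The Toll receptors, which in *Drosophila* receive the cytokine spaetzle, gave 353 reads in C0 and 389 in C1 over 10 members, a log2 ratio of 0.29 [0.08, 0.49]. None was a DEU. Unigene2787, best hit to a toll-like receptor of *E. sinensis*, had 51 reads in C0 and 79 in C1, with a log2 ratio of 0.77 [0.27, 1.28] and an adjusted p of 0.0274 in the exact binomial test. Unigene56655 had 71 and 62 reads, Unigene44673 had 55 and 71, and Unigene17148 had 52 and 73. Unigene6396 had 57 in each library, and Unigene44675 had 55 and 43. The levels of the 10 receptors reached an RPKM of at most 37.9 in C0 and 36.7 in C1, and relish Unigene9425 was above this range in C0 (53.7) and within it in C1 (18.4). With TMM factors the log2 ratio of the receptor sum was 0.12 [-0.09, 0.33]. The log2 ratio of the summed reads was above 0 for the receptors and below 0 for relish. Single members of each went the other way, and the difference between the families was not tested.

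Of the remaining signalling members, the Toll interacting protein, an adaptor that dampens Toll-like receptor signalling in mammals, was low in both libraries and lower in C1. Unigene40309 had 22 reads in C0 and 3 in C1, with a log2 interval of -4.38 to -1.08 and an adjusted p of 0.00517 in the exact binomial test. Unigene51039, with the same best hit, had 18 and 5 reads, and the pair summed to 40 and 8. Neither passed the test. Dorsal, the Rel factor of the *Drosophila* Toll pathway, had 11 reads in C0 and 6 in C1 (Unigene29341). The unigene named for the signalling intermediate ECSIT had 3 and 5 (Unigene21251).

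Dscam, an immunoglobulin-type receptor that arthropods diversify by splicing, was near the limit of detection. Its 5 members had 15 reads in C0 and 8 in C1, of which Unigene46007 had 9 and 4. Unigene19075 had 3 and 1 reads, Unigene7889 had 1 and 2, and Unigene13924 had 1 in each library. The interferon word found 4 unigenes of a lysosomal thiol reductase, an enzyme of antigen processing that is induced by interferon gamma in mammals. Their reads summed to 46 in C0 and 30 in C1, most in Unigene28352 with 29 and 19, followed by Unigene9052 with 12 and 5, Unigene42059 with 4 and 6, and Unigene48097 with 1 and 0. These 9 members included no DEU, and none of them had an unadjusted p under 0.05 in the exact binomial test.

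The last 4 members carry a rule word within the name of another protein, namely 2 plectin-1 unigenes, a tolloid-like protein and an interactor of an interferon-induced kinase. Plectin links cytoskeletal filaments and is not a lectin. Plectin-1 Unigene39456 had 89 reads in C0 and 25 in C1, with a log2 ratio of -1.66 [-2.32, -1.05] and an adjusted p of 7.87e-07 in the exact binomial test. Without these 4, the members of immune name included 2 DEUs that rose and 4 that fell.

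**Figure D4:**
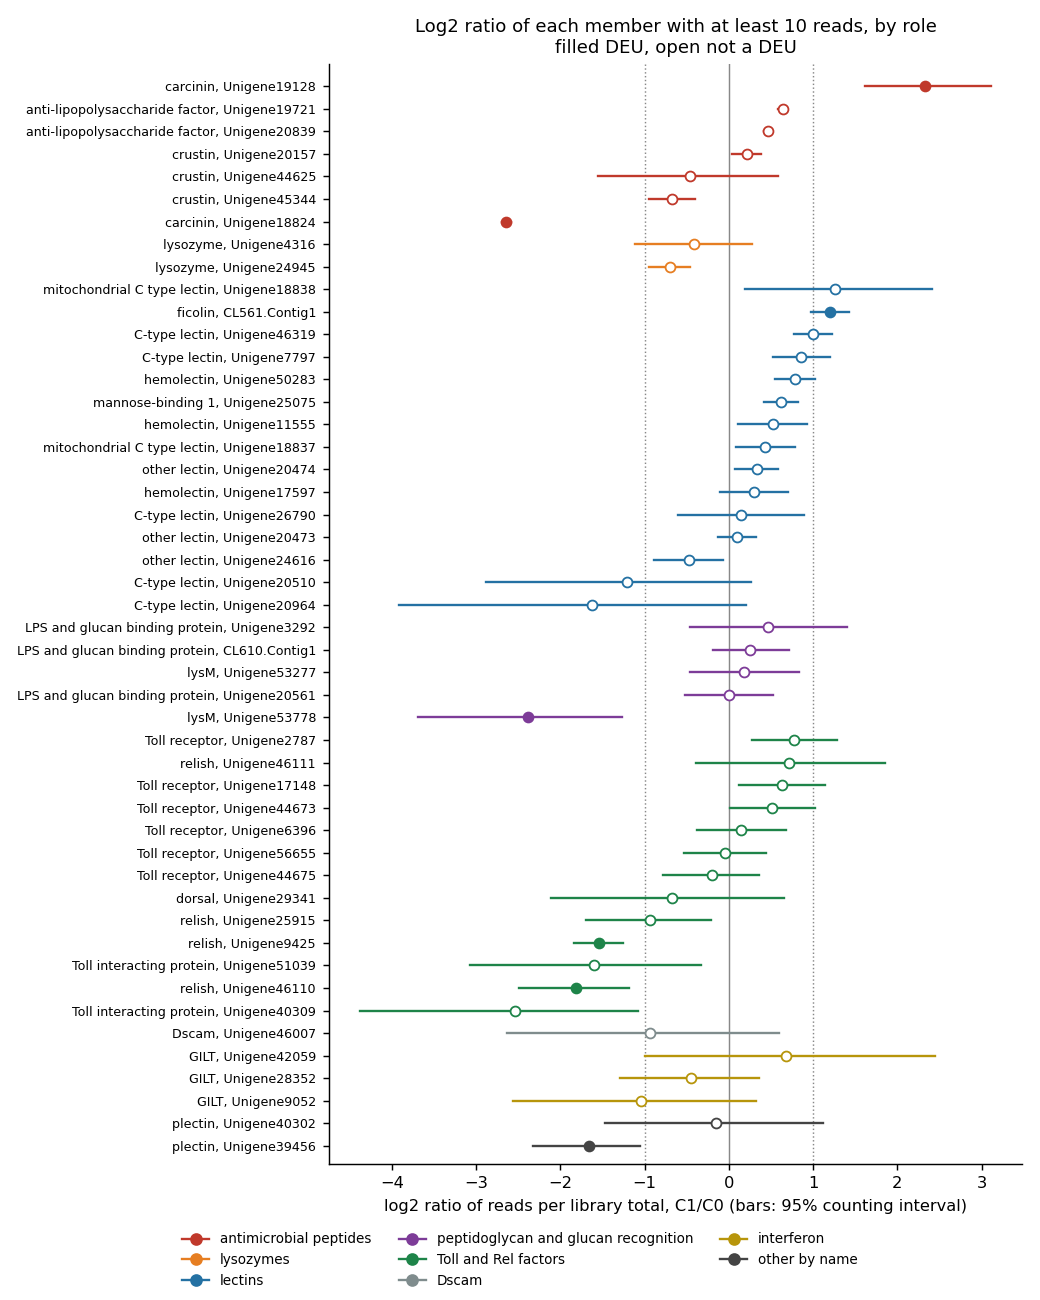
The points show the log2 ratio (C1/C0) of the 48 members with 10 or more reads over both libraries, grouped by role, with 95% counting intervals as bars, filled points for DEUs and dotted lines at the threshold of 1. The carcinin unigenes lie at 2.33 and -2.64, 12 of the 15 lectins lie above 0 (10 with TMM factors), and 3 of the 4 relish unigenes lie below 0.

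Reads covered the members unevenly along their length. Among the 33 members with at least 50 reads, the median share of the unigene length covered was 93.3% in C0 and 93.1% in C1, beside 92.8% and 92.7% for all unigenes with as many reads. In both libraries 8 of the 33 (24.2%) were covered over less than 70% of their length, against 6.19% of those unigenes. They were the pair of 972 bp lectins, 1 glucan-binding unigene, 2 Toll receptors, both relish DEUs and a mitochondrial C-type lectin. That lectin, Unigene18837, had 122 reads in C0 and 149 in C1 on 13.0% and 12.8% of its 2494 bp. For relish Unigene46110 the covered length was 27.7% and 24.7%, and for relish Unigene9425 it was 58.1% and 56.0%. The reads of the authors' table are those that mapped to 1 place, so stretches shared with another unigene could go uncounted, and the part of this in the low coverage was not tested. The 71 members had 53 different best-hit proteins, and 31 members shared theirs with another member.

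**Figure D5:**
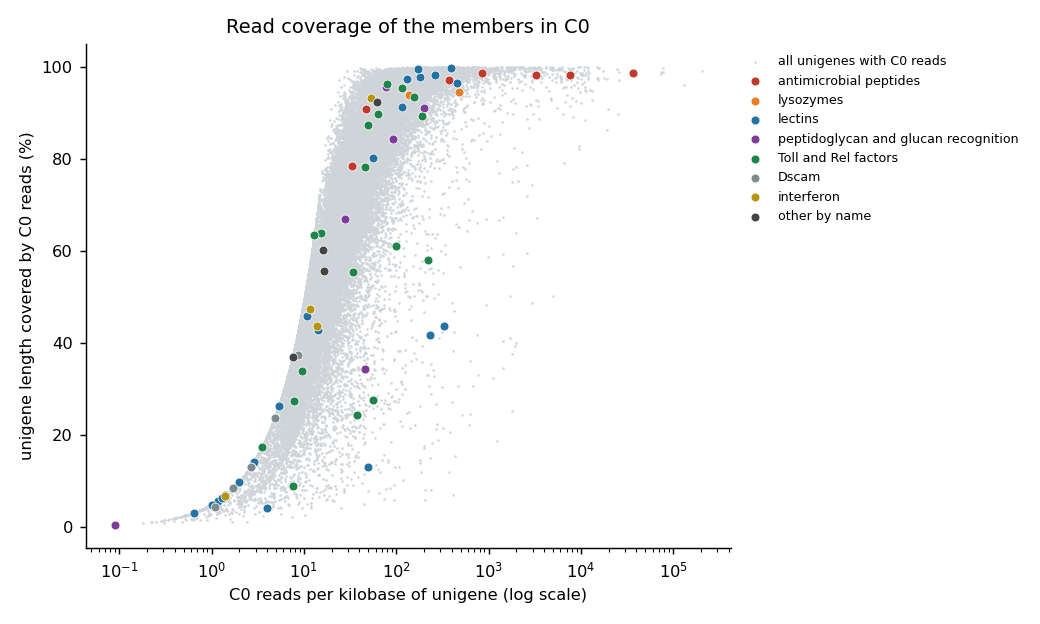
The plot shows the percent of the unigene length covered by C0 reads against C0 reads per kilobase on a log scale, with all unigenes with C0 reads in grey and the members in colour by role. Most members follow the grey band, while 8 of the 33 with at least 50 reads lie below 70% in both libraries, such as the mitochondrial C-type lectin at 13.0%.

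Other genes of the pathways, selected by name outside the rule, included 3 DEUs among 64 unigenes (4.69%), beside 4.03% of all unigenes. In Toll and IMD signalling 0 of 8 unigenes were DEUs, by the exact binomial test as by Fisher's exact test, and 4 had an unadjusted p under 0.05. Their summed reads were 152 and 95, a log2 ratio of -0.53 [-0.90, -0.16], and 4 of the 5 with at least 10 reads were below 0. The unigene with the most reads was the exception, an NF-kappa-B-repressing factor (Unigene50354, 34 reads in C0 and 52 in C1). It entered by the word NF-kappa, which does not place it in these pathways. Pellino, a ubiquitin ligase of the *Drosophila* Toll pathway (Unigene50230), had 49 and 17 reads with an adjusted p of 0.00610 in the exact binomial test. In the list for JAK-STAT signalling, a second immune pathway, 0 of 14 were DEUs by either test and 2 had an unadjusted p under 0.05. This list went the other way, with 242 and 290 reads summed over its unigenes. The ratio of these sums was 0.41 [0.16, 0.65] on the log2 scale. Of its 7 unigenes with at least 10 reads, 7 were above 0 and 0 below, and the interval lay above 0 in 2. Some of the 14, such as Unigene54350 (ankyrin repeat and SOCS box protein 13), entered by the words SOCS box, which do not place them in this pathway. The transcription factor STAT (Unigene48864) had 147 and 172 reads there.

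Among 23 unigenes of scavenger receptors, tetraspanins and alpha-2-macroglobulins, 1 rose (4.35%, beside 2.32% of all unigenes) and 0 fell. It was an alpha-2-macroglobulin, a protease inhibitor of the hemolymph (Unigene40213), with 30 reads in C0 against 88 in C1 and a log2 ratio of 1.68 [1.11, 2.29]. The unigene with the most reads of this list was a CD63-like tetraspanin (CL541.Contig1), with 2331 and 1150 reads and a log2 ratio of -0.87.

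RNA interference includes an antiviral pathway of arthropods. The list for it also holds argonaute 1, dicer-1 and piwi-like unigenes, whose names do not place them in that pathway. Among the 19 unigenes of the list, 0 rose and 2 fell (10.5%, beside 1.70% of all unigenes). Both were annotated as argonaute 2, the nuclease that cuts viral RNA in *Drosophila*. Unigene45976 had 315 reads in C0 and 56 in C1, with a log2 ratio of -2.33 [-2.75, -1.94] and an adjusted p of 2.14e-37 in the exact binomial test. Unigene44593 had 47 and 11 reads, with a log2 ratio of -1.90 [-2.88, -1.02]. A further argonaute 2 unigene with the same best hit, Unigene7284, had 39 and 41 reads, with an interval of -0.41 to 0.85, and Unigene39490 had 18 and 15 reads, with an interval of -1.09 to 0.85.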

How the data were processed

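Y-organ mRNA was sequenced by the authors with single-end Illumina reads, 1 library per group, and the filtered reads were aligned to unigenes of a previous transcriptome assembly by SOAPaligner/soap2. The aligner version is not given in the sources used here. For each unigene the authors deposited a raw count, the number of reads mapped to 1 place. A deposited RPKM was derived from this count with the unigene length and the library sum. The deposited coverage is a percent, the part of a unigene under reads. The authors' comparison columns (log2 ratio, direction, p-value and false discovery rate) were not used. Value columns without a matching sample numbered 0.

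Members were selected from the protein annotation with the rule words and placed in role groups by name. Members and lists were chosen with earlier results of these data known, and the words of the pathway and marker lists were narrowed to whole words after annotations and values had been seen. All DEU members, the 4 members with the most reads in each role group, and each DEU and the most abundant unigene of the pathway lists are named. Members, list unigenes and marker unigenes named beyond this rule were chosen after their values were seen.

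Library sizes were the summed counts. The exact binomial test, Wilson intervals and Benjamini-Hochberg adjustment were run in scipy 1.17.1 (Python 3.11.15) with pandas 2.3.3 and numpy 2.4.6, and plots were made in matplotlib 3.10.9. The adjusted p threshold was 0.001 and the log2 threshold 1, as in the authors' methods. A quasi-likelihood fit was not possible with 1 library per group. With at most 3 reads in 1 library, reads and the interval are given in place of a fold. The exact binomial test was checked on simulated counts that held counting error only, and this check cannot cover the spread between crabs. Alternatives used edgeR 4.0.16 (R 4.3.3). The RefSeq gene table matched 0 members, so sequences and coordinates are not used here.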

Additional observations from a re-analysis of the deposited data

How the results depend on the processing

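The 15 alternatives left the number of DEUs among the 71 members within 1.5 times of 7, with these exceptions, and 1 of the 15, leaving out members with a unicellular best hit, removed 0 members and could change nothing. With a biological coefficient of variation of 0.2 assumed in the edgeR exact test, 1 member passed, the carcinin-like unigene (0 higher, 1 lower). With 0.4 there were 0 (0 higher, 0 lower), and 5 members had an unadjusted p under 0.05. A log2 threshold of 2 left 3 (1 higher, 2 lower), and one of 1.5-fold gave 14 (7 higher, 7 lower). Over all unigenes the split of 1115 higher and 816 lower became 730 and 1053 with TMM factors and 757 and 989 with the median ratio. The same 7 members passed in both. Assumed coefficients of 0.1, 0.2 and 0.4 gave 652 and 585, 101 and 194, and 1 and 7. The log2 ratio of summed reads moved from -0.76 to -0.93 (TMM) and -0.91 (median ratio) for the antimicrobial peptides and turned to 0.51 without the carcinin-like unigene. For the lectins it moved from 0.61 to 0.44 and 0.46, and for the Toll and Rel group from -0.55 to -0.72 with TMM and to -0.10 without relish Unigene9425. Without the member with the most reads, lysozymes moved from -0.67 to -0.41 and the members of another function from -1.33 to -0.31. The list of scavenger receptors, tetraspanins and alpha-2-macroglobulins had 1 DEU, and 2 with TMM or the median ratio. The log2 ratios of the 29 members named by the rule were recomputed 116 times under the scalings and with 1 read added, and 116 kept their call, while 2 of the 29 changed sign with TMM, as did 3 of the 48 members with at least 10 reads.

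No paired analysis was possible because each group has 1 library. Without replicates, the spread between crabs is unknown, and depth limits the 23 members under 10 reads. Reads of near-identical unigenes can be split or lost by unique mapping, so single members of a family are uncertain. The median-ratio factors of both libraries were equal.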
